A study of Mus musculus with 4 samples.

Results

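The nuclear genome encodes most subunits of the 5 complexes that carry out oxidative phosphorylation (OXPHOS), and their transcripts were followed here in single bone marrow cells of myeloma-bearing mice. The gene set was taken by a symbol rule over the Nduf, Uqcr, Sdh, Cox and Atp5 subunit families. It matched 83 of the 32285 genes of the deposited tables. The rule does not take in every subunit: Cox4i1, Cox4i2 and Cyc1 did not match it and were counted apart. Complex I held 37 of them (7 core and 30 accessory subunits), complex II 4, complex III 8, complex IV 17 with Ndufa4, and complex V 17. Ndufa4l2, the paralog of Ndufa4, was counted among the 30 by its symbol alone and was tested in no set of cells. All 83 had a gene ID in the GENCODE vM21 annotation, on 19 chromosomes, and 82 were typed protein coding. The exception was Ndufb1-ps, an accessory subunit of complex I, which that annotation types as a bidirectional promoter lncRNA. A further 13 genes with the prefix mt- lie on the mitochondrial genome and were set beside the nuclear members.

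The mice were C57BL/KawRij animals, 6 weeks old when 5TGM1-luc cells, a luciferase-tagged mouse myeloma line, were given intravenously, which makes the 5TMM model. Both groups carried these tumour cells. A vehicle group (n = 2) was compared with a PM group (n = 2), which had received purinostat mesylate, an inhibitor of class I and IIb histone deacetylases, at 10 mg/kg, and marrow was taken at 24 h after dosing. Each library came from the marrow of 1 mouse after lysis of erythrocytes, and the tumour in all animals derived from a single line.

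Complexes I and II pass electrons from NADH and succinate to ubiquinone, complex III hands them to cytochrome c, and complex IV reduces oxygen. Complex V, the ATP synthase, uses the proton gradient that complexes I, III and IV build. Complexes I, III, IV and V mix nuclear subunits with subunits translated inside the mitochondrion, while complex II is wholly nuclear encoded. Nuclear OXPHOS genes are known targets of the transcription factors NRF-1, the ETS factor GABP and YY1, and neutrophils are known for leaning on glycolysis and for losing mitochondria as they mature.

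The libraries held 69828595 to 109447030 UMIs, each UMI (unique molecular identifier) standing for 1 captured transcript, and 7826 to 13387 cells per library passed the filters, 39743 in all. The libraries of any pair shared few cell barcodes. Doublets were called in 1.96% to 5.73% of cells, the highest share being in PM mouse 1. Cell types were rebuilt from marker genes, since no annotation of cells was used here. Of the kept cells, 25150 were neutrophils, which were divided by markers into 1222 precursor, 2961 cycling immature, 8666 immature and 12301 mature cells. Cluster 12, led by Cd34, Mpo and Ctsg, had more neutrophil precursor than stem cell markers among its leading genes and is named by its number. The set called T cells takes in natural killer (NK) cells: 282 of its 1890 cells lay in cluster 24, with Klrb1c and Ncr1 among its leading genes. Plasma cells were divided into 171 cells called clonotypic here (Igkv10-96 was the leading light-chain V gene in 158 of the 161 with any) and 274 others. Counts of 20 sets of cells were tested, the stages and subclasses among them lying inside larger types. Of the 83 members, 64 were tested in all 20 sets and 4 in none. Cox7b2, Cox8b and Cox8c, isoforms known mainly from testis or muscle, had 0 UMIs in the kept cells, and Ndufa4l2 had 15.

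Promoters of 3 members described below are shown first, because their changes ran in opposite directions. Atp5k (subunit e of the ATP synthase) and Cox6a1 (the broadly used form of cytochrome c oxidase subunit 6A) fell in both immature and mature neutrophils, whereas Cox6b2 (the testis form of subunit 6B) rose in mature neutrophils. The runs are the 250 bases upstream of each RefSeq transcription start (GRCm38.p6), written 5′ to 3′ on the gene's strand, and capitals mark matches to a motif. The Atp5k run is chr5:108434400-108434649 on the minus strand, that of Cox6a1 is chr5:115348959-115349208 on the minus strand, and that of Cox6b2 is chr7:4753095-4753344 on the minus strand.
Atp5k: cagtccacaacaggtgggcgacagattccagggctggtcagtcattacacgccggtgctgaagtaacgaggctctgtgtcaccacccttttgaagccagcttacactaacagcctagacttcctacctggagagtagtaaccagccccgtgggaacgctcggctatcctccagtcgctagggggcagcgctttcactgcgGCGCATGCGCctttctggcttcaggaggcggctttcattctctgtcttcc
Cox6a1: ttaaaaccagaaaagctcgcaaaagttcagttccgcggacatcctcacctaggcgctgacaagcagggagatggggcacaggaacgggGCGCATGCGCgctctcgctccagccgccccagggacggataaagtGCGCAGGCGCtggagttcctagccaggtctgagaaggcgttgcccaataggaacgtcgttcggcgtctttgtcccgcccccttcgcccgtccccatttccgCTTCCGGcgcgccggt
Cox6b2: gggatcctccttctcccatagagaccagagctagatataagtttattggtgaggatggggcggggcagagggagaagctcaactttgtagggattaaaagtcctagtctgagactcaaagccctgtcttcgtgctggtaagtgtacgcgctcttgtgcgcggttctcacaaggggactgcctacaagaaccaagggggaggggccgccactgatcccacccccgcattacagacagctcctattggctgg
The NRF-1 motif was searched as GCGC, any base and TGCGC, the ETS motif as CCGGAAG and the YY1 motif as AAGATGG, each on both strands over 250 bases before and 50 bases after the start. Atp5k held an NRF-1 match 50 bases upstream, and an ETS match 12 bases downstream of the start, outside the printed run. Cox6a1 held NRF-1 matches 162 and 117 bases upstream and an ETS match 16 bases upstream. No match lay in the Cox6b2 window. Of the 83 members, 67 matched a RefSeq window by symbol. An NRF-1 match lay in 25.4% of these 67 windows and in 5.19% of all 27025 windows, an ETS match in 25.4% and 9.93%, and a YY1 match in 14.9% and 7.28%. At least 1 of the 3 motifs was found in 38 of the 67 members, or 56.7%, against 20.03% of all genes. Of the 16 members that fell in some set of cells and have a window, 6 held an NRF-1 match, 5 an ETS match and 3 a YY1 match. Atp5k and Cox6a1 were the only ones of these 16 with an NRF-1 and an ETS match together. Among the others that fell in both stages, Atp5md held an ETS match alone, Ndufa3 a YY1 match alone and Ndufv3 no match. Ndufb1-ps, which also fell in both, had no RefSeq window by symbol. Whether motifs go with the direction of a change was not tested. A match is a run of letters, not a shown binding site.

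The level of the members varied far more between cell types than between treatments. The summed share of a type's UMIs that came from the 83 members was highest in clonotypic plasma cells, at 2.53% and 2.89% in the vehicle mice against 2.63% and 2.65% in the PM mice. Cluster 12 followed with 2.37% and 2.56% against 2.37% and 2.30%, and erythroid&prog and mono&prog cells lay between 2.08% and 2.59%, so that neighbours in this order overlapped. Neutrophil precursors were in the same band, at 2.19% and 2.33% against 2.10% and 1.97%.

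**Figure D1:**
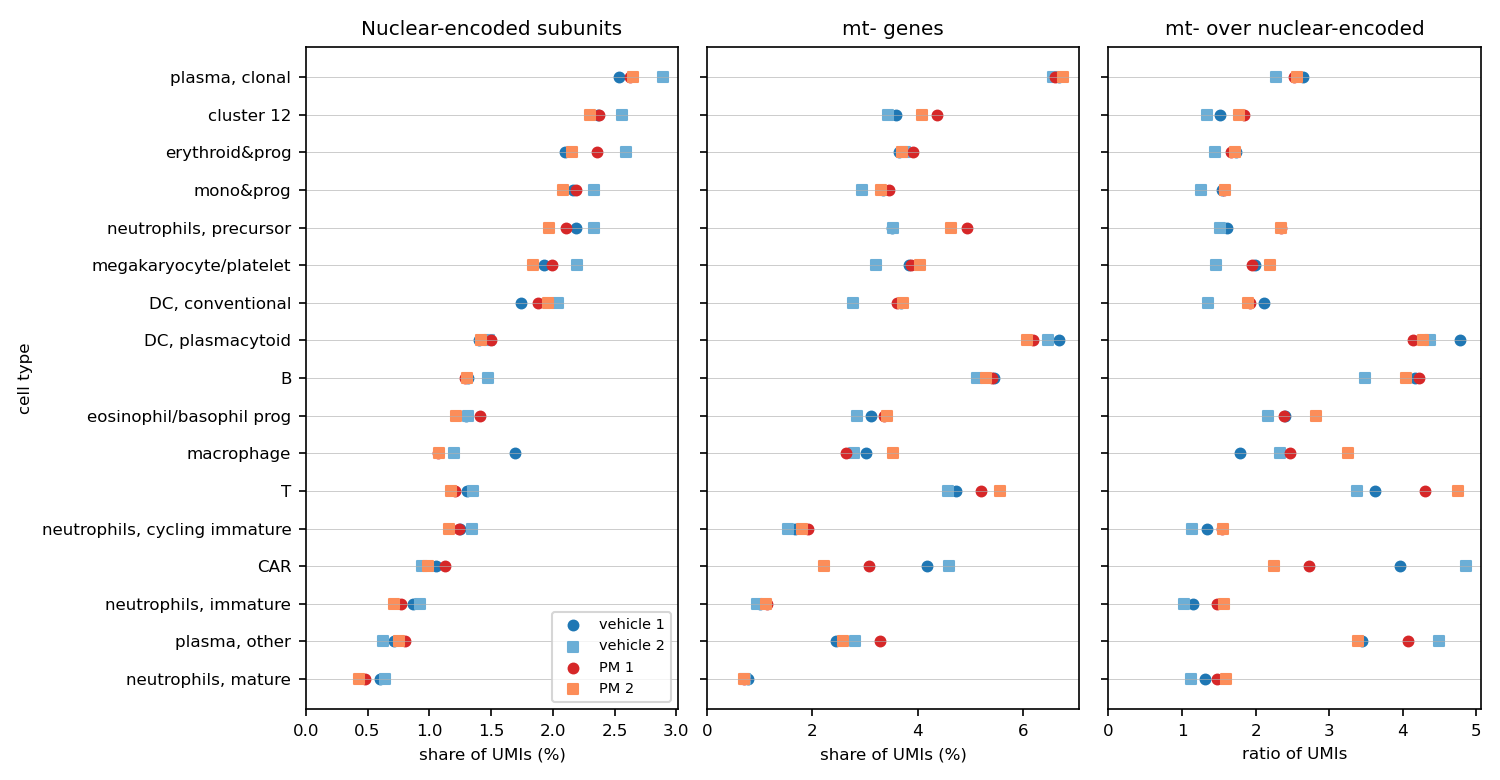
Share of all UMIs (percent, horizontal axis) held by the 83 nuclear members and by the 13 mt- genes in each marker-defined set of cells. Each point is 1 mouse, with vehicle and PM in separate colours; clonotypic plasma cells (2.53% to 2.89%) stand at the high end for the nuclear members and mature neutrophils (0.431% to 0.643%) at the low end.

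Lymphocytes stood lower, B cells between 1.28% and 1.47% and T cells between 1.17% and 1.35%. The share stepped down along the neutrophil stages. From 1.97% to 2.33% in precursors it went to 1.16% to 1.35% in cycling immature cells, to 0.712% to 0.927% in immature cells and to 0.431% to 0.643% in mature cells, with no overlap between neighbouring stages. The stages were drawn from clusters of these same cells, so this order is a description. The clonotypic and the other plasma cells did not overlap either, the latter holding 0.624% to 0.806%. Of the 80 members with any UMI, 37 had their highest level in clonotypic plasma cells, 12 in erythroid&prog cells, 9 in cluster 12, 8 in mono&prog cells and 7 in neutrophil precursors.

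The make-up of the members' UMIs by complex varied little. Over all sets of cells and mice, complex I took 27.3% to 37.2% of the members' UMIs, complex V 27.5% to 35.1%, complex IV 21.2% to 27.0%, complex III 9.40% to 12.7% and complex II 1.62% to 3.35%. These tags count transcript 3′ ends, so 1 UMI is 1 transcript whatever its length, but capture can differ between genes.

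PM was compared with vehicle first by these shares, which need no model. In mature neutrophils the 83 members held 0.597% and 0.643% of the UMIs in the vehicle mice against 0.475% and 0.431% in the PM mice. The groups did not overlap, and the ratio of the means was 0.731. In immature neutrophils the shares were 0.866% and 0.927% in the vehicle mice against 0.772% and 0.712% in the PM mice, again without overlap and with a ratio of 0.828. With 2 against 2 mice an exact two-sided permutation test cannot give a p below 0.33, so no p is given for shares. Per mature cell, means of 26.9 and 25.03 member UMIs were counted in the vehicle mice against 14.3 and 14.95 in the PM mice. The mean UMIs per cell of all genes were 4501 and 3892 against 3005 and 3470. Shallower cells and fewer member transcripts per cell thus went together, and shares were compared for this reason.

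**Figure D2:**
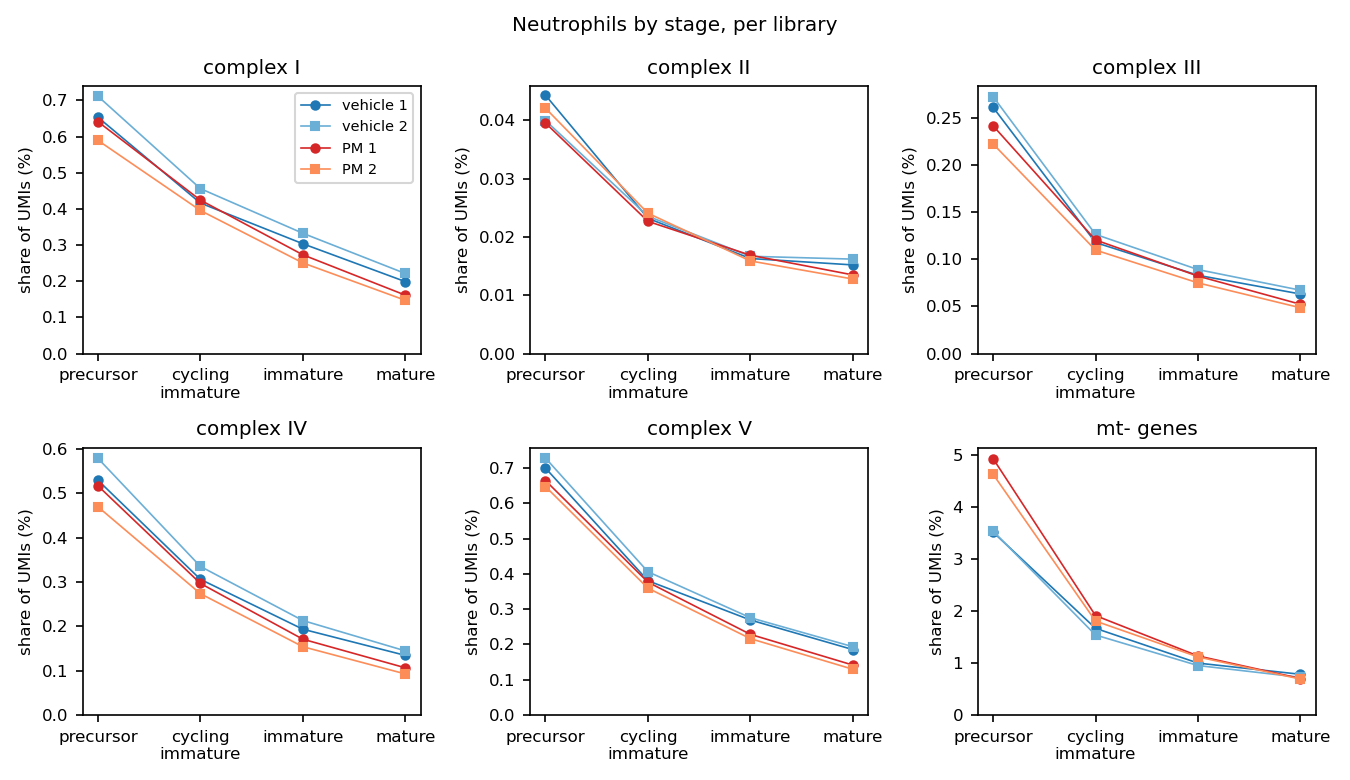
Share of UMIs (percent) held by each of complexes I to V and by the mt- genes along the 4 neutrophil stages, 1 point per mouse. In mature cells both PM mice lie below both vehicle mice for each complex.

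All 5 complexes had lower shares in mature neutrophils of PM mice. The ratio of PM to vehicle was 0.735 for complex I, 0.837 for complex II, 0.773 for complex III, 0.713 for complex IV and 0.716 for complex V, and both PM mice were below both vehicle mice for each. In immature neutrophils complexes I, III, IV and V had ratios of 0.823, 0.913, 0.799 and 0.817, with no overlap. Complex II did overlap there, at 0.0163% and 0.0167% in the vehicle mice against 0.0168% and 0.0159%.

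The pooled neutrophils did not show this fall in their summed share. Their shares were 1.05% and 1.17% in the vehicle mice against 1.11% and 1.01% in the PM mice, which overlapped. Precursors, the stage richest in these transcripts, made up 2.41% and 2.27% of all cells in the vehicle mice against 3.63% and 3.61% in the PM mice, and mature cells 41.7% and 31.3% against 24.3% and 29.5%. Over the 20 sets of cells, the nuclear share was lower in all 4 vehicle-PM pairs in 7: the 4 neutrophil stages, B cells, T cells and macrophages. This number was 15 without vehicle mouse 1 and 13 without PM mouse 1. With a mouse left out fewer pairs have to agree, so this number can only stay the same or rise.

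Clusters inside the stages also shifted between groups, so the comparison was repeated in the largest cluster of the immature and of the mature stage (an alternative chosen after the data were seen). Cluster 0 held 1399 of 1837 and 1059 of 1430 immature cells in the vehicle mice. In the PM mice it held 1575 of 3159 and 962 of 2240. Cluster 1 held 1026 of 3861 and 704 of 2450 mature cells against 954 of 3257 and 983 of 2733. In cluster 0 the members held 0.827% and 0.892% of the UMIs in the vehicle mice against 0.787% and 0.733% in the PM mice. In cluster 1 they held 0.542% and 0.595% against 0.441% and 0.374%. Neither cluster's groups overlapped.

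Tested gene by gene with edgeR's quasi-likelihood test on UMIs summed per mouse, a member was called when the Benjamini-Hochberg adjusted p was under 0.05 and the absolute log2 fold change over 0.5. In mature neutrophils 77 members were tested, 16 fell and 1 rose. Of all 9768 genes tested there, 2.71% were called lower and 4.99% higher. The median log2 fold change was −0.34 over the members and −0.0012 over all genes, and 70 of the 77 had values below 0, as had 50.1% of all genes. In immature neutrophils 10 of 77 members fell and none rose, while 1.83% of all 10513 genes were called lower and 5.97% higher. There the median was −0.33 with 72 of 77 below 0 (50.4% of all genes). In pooled neutrophils the members' median was −0.17 with 68 of 78 below 0, against a median of 0.01 over all genes. That pooled median depended on the scaling, at −0.0197 with 44 of 78 below 0 under library size alone. The median over all genes moved as well, to 0.17 under that scaling. Both PM mice lay below both vehicle mice for 59 members in mature cells, where 28.8% of all genes did so, and for 55 in immature cells, where 27.4% did so.

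**Figure D3:**
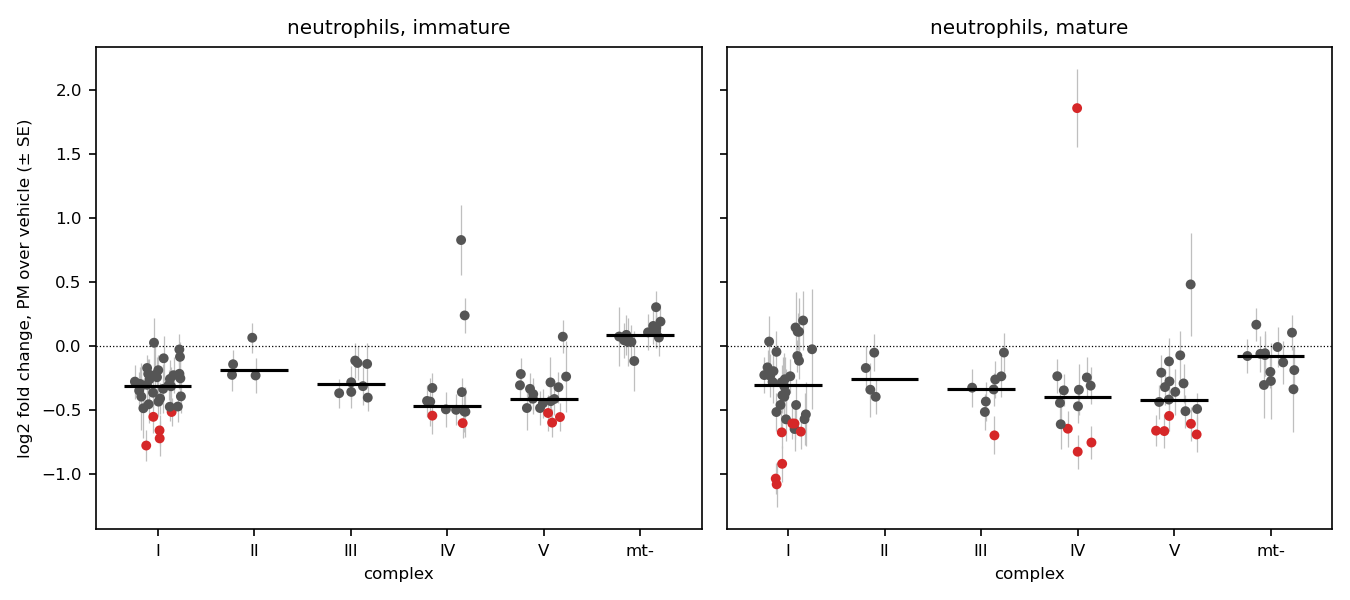
Log2 fold change (PM against vehicle) of each tested nuclear member in immature and mature neutrophils, grouped by complex, with called members marked. Most points lie below 0, with medians of −0.33 and −0.34; Cox6b2 stands apart at 1.86 in mature cells.

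Over all 20 sets, 30 calls fell on 22 members, 28 of them lower and 2 higher after PM. The 6 members that fell in both immature and mature neutrophils were Atp5k, Atp5md, Cox6a1, Ndufa3, Ndufb1-ps and Ndufv3. Both stages come from the same 4 mice, and the counts lean on single mice. The 17 calls in mature cells became 4 without vehicle mouse 1, 10 without vehicle mouse 2 and 3 without either PM mouse. The calls in immature cells also changed with the mouse left out, and not all were falls without vehicle mouse 2 or PM mouse 2. The members' median there was −0.41 and −0.29 without vehicle mouse 1 or 2. It was −0.49 and −0.21 without PM mouse 1 or 2. With the replicate number as a block, 2 and 6 calls were made in mature and immature cells. In each of these fits the members called with all 4 mice kept the sign of their change.

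Among the core subunits of complex I, which carry the flavin and the iron-sulfur clusters, none of 7 was called in either stage, with medians of −0.22 in immature and −0.28 in mature neutrophils. The accessory subunits surround this core. Of 29 tested, 5 fell in immature cells (median −0.31) and 7 in mature cells (median −0.36). The steepest falls of complex I were all accessory.

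Ndufb1-ps was the most abundant member of complex I over all cells. In mature neutrophils its level was 229 and 234 CPM (counts scaled to 1000000 per library with TMM factors, as are the levels below unless stated) in the vehicle mice against 113 and 114 in the PM mice. The groups stood far apart relative to their spread. Its log2 fold change was −1.03 ± 0.12 (SE, n = 2 per group; adjusted p = 0.00421), and it was called in mature and immature cells in every alternative that was run. In immature cells it measured 333 and 371 against 206 and 206, a log2 fold change of −0.78 ± 0.12 (adjusted p = 0.00294).

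Ndufb1-ps was also the one member called in pooled neutrophils, where 1.24% of all genes were called lower, and in B cells, where 2.68% were. In pooled neutrophils it had 363 and 409 CPM against 254 and 256 (log2 fold change −0.60 ± 0.13, adjusted p = 0.0299). In B cells it had 385 and 468 against 288 and 295 (−0.56 ± 0.15, adjusted p = 0.037), without overlap. The B cells of both groups lay in the same 3 clusters, but in different proportions. Cluster 16, led by the B cell precursor genes Vpreb1, Igll1 and Rag1, held 34.2% and 48.9% of the B cells of the vehicle mice against 13.4% and 17.2% in the PM mice, and all 12 cycling genes had a log2 fold change below 0 in B cells (median −0.38, none called). Within each of the 3 B cell clusters (values chosen after the data were seen, without TMM scaling) Ndufb1-ps was lower in both PM mice. Cluster 16 had 476 and 541 CPM against 395 and 402, cluster 7 had 269 and 264 against 203 and 199.8, and cluster 19 had 407 and 449.9 against 245 and 297. The summed share of all members did not keep its order in cluster 16, at 1.53% and 1.67% against 1.77% and 1.70%. Both calls depended on the fit. That in B cells was absent with DESeq2, with the stricter cell filter and without vehicle mouse 2 or either PM mouse. That in pooled neutrophils was absent with library size alone (log2 fold change −0.44, adjusted p = 0.0559), with the replicate block (−0.59, adjusted p = 0.113) and without any 1 of the mice. The gene overlaps 1 gene on the other strand.

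Ndufv3, an accessory subunit of the NADH-oxidising module, had 77.2 and 69.1 CPM in the vehicle mice against 41.9 and 35.5 in the PM mice in mature neutrophils, a log2 fold change of −0.92 ± 0.14 (adjusted p = 0.0108). In immature cells it had 155 and 172 against 111 and 86.9 (−0.72 ± 0.14, adjusted p = 0.0085). The groups were separate in both stages. Ndufa8, which sits on the intermembrane side of complex I, had 58.8 and 60.3 CPM against 33.2 and 23.2 in mature cells, the steepest fall of any member there (−1.08 ± 0.18, adjusted p = 0.0142). In immature cells its values of 57.5 and 65.3 against 51.4 and 38.0 did not pass (adjusted p = 0.0798).

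The other complex I members that fell in mature cells were Ndufa1, Ndufa2, Ndufa3 and Ndufa6, small accessory subunits. Ndufa1 went from 91.2 and 97.1 to 60.0 and 58.1 CPM, and Ndufa6 from 70.8 and 83.1 to 50.1 and 46.8, a log2 fold change of −0.67 for each. Ndufa3 fell in both stages, from 143 and 151 to 94.4 and 99.2 CPM in mature cells and from 172 and 178 to 122 and 123 in immature cells. Ndufb2 and Ndufc1 fell in immature cells alone, with log2 fold changes of −0.66 and −0.55; whether the stages differ was not tested. Ndufa9, the least abundant tested complex I member over all cells, stood at 7.63 and 6.86 against 5.80 and 4.26 in mature cells and did not pass (adjusted p = 0.213).

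Complex II, succinate dehydrogenase, also serves the citric acid cycle and was the scarcest complex. No member was called in either stage. Sdha, its flavoprotein, had 49.1 and 49.5 CPM in the vehicle mice against 35.4 and 39.6 in the PM mice in mature cells. These did not overlap, yet the change did not pass (−0.40 ± 0.13, adjusted p = 0.102). Sdhb, the iron-sulfur subunit, overlapped, with 44.0 and 34.2 against 36.9 and 25.2.

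In complex III, 1 of 8 members was called. Uqcr11, a small subunit, had 51.5 and 63.9 CPM against 35.3 and 35.8 in mature neutrophils (−0.70 ± 0.15, adjusted p = 0.0293). Uqcrh, the hinge protein and the most abundant member of complex III over all cells, had 257 and 222 against 208 and 174, with no overlap but an adjusted p of 0.205. Uqcrc1, a core protein, was level within its spread, at 20.8 and 20.4 against 20.7 and 19.1 CPM.

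Complex IV, cytochrome c oxidase, had the lowest median of the complexes in immature neutrophils (−0.46 over 12 members, 2 called lower). In mature cells its median was −0.39, with 3 members called lower and 1 higher. Cox6a1 had 163 and 153 CPM against 83.0 and 95.4 in mature cells (−0.82 ± 0.13, adjusted p = 0.0121) and 258 and 258 against 167 and 173 in immature cells (−0.60 ± 0.11, adjusted p = 0.0088). Its promoter is the second of those printed above. Cox7c, a small membrane subunit and the most abundant complex IV member over all cells though not in mature neutrophils, had 145 and 131 against 86.3 and 77.9 in mature cells (−0.75 ± 0.13, adjusted p = 0.0154). Cox6c fell from 153 and 162 to 111 and 90.4 CPM there.

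The broadly used paralogs shared the direction without all passing. Cox6b1 had 176 and 183 CPM against 148 and 135 in mature cells (adjusted p = 0.125). Cox7a2 fell in immature cells, from 219 and 237 to 178 and 135 (−0.54 ± 0.14, adjusted p = 0.037), and had 140 and 135 against 106 and 92.0 in mature cells (adjusted p = 0.0625). Cox7a2l, which helps to join complexes III and IV, had 119 and 106 against 99.7 and 81.9 in mature cells, but 102 and 88.6 against 127 and 98.3 in immature cells. Neither passed. Cox8a varied within the PM group in mature cells, at 208 and 224 CPM against 206 and 135. Ndufa4, counted with complex IV, had 139 and 160 against 111 and 101 in immature cells, an adjusted p of 0.0275 with a log2 fold change of −0.50, just short of the size required. The muscle form Cox7a1 was near 1 CPM over all cells, between 0.817 and 1.12 in the 4 mice without TMM scaling.

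Complex V had medians of −0.41 in immature and −0.42 in mature neutrophils, with 3 and 5 of 17 members called lower. Of the catalytic head, Atp5c1 (the gamma subunit) had 66.8 and 63.0 CPM against 42.9 and 37.6 in mature cells (−0.69 ± 0.13, adjusted p = 0.0229), and Atp5e (epsilon) had 215 and 231 against 151 and 131 (−0.66 ± 0.14, adjusted p = 0.0261). Both were separate between groups. Atp5a1 and Atp5b, the alpha and beta subunits that form the catalytic ring, did not pass: Atp5b had 85.5 and 80.8 against 78.0 and 66.2 in mature cells. Of the stalk and membrane part, Atp5f1 (subunit b) fell from 245 and 222 to 162 and 145 CPM. Atp5k, whose promoter is printed above, fell from 98.9 and 97.0 to 61.0 and 63.0 in mature cells (−0.66 ± 0.12, adjusted p = 0.0195) and from 174 and 182 to 117 and 125 in immature cells. Atp5md, a small protein tied to pairing of the synthase, fell by 0.54 and 0.60 on the log2 scale in mature and immature cells. Atp5l (subunit g), the most abundant member of the complex over all cells, had 383 and 394 against 296 and 279 in mature cells, without overlap but with an adjusted p of 0.0793.

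**Figure D4:**
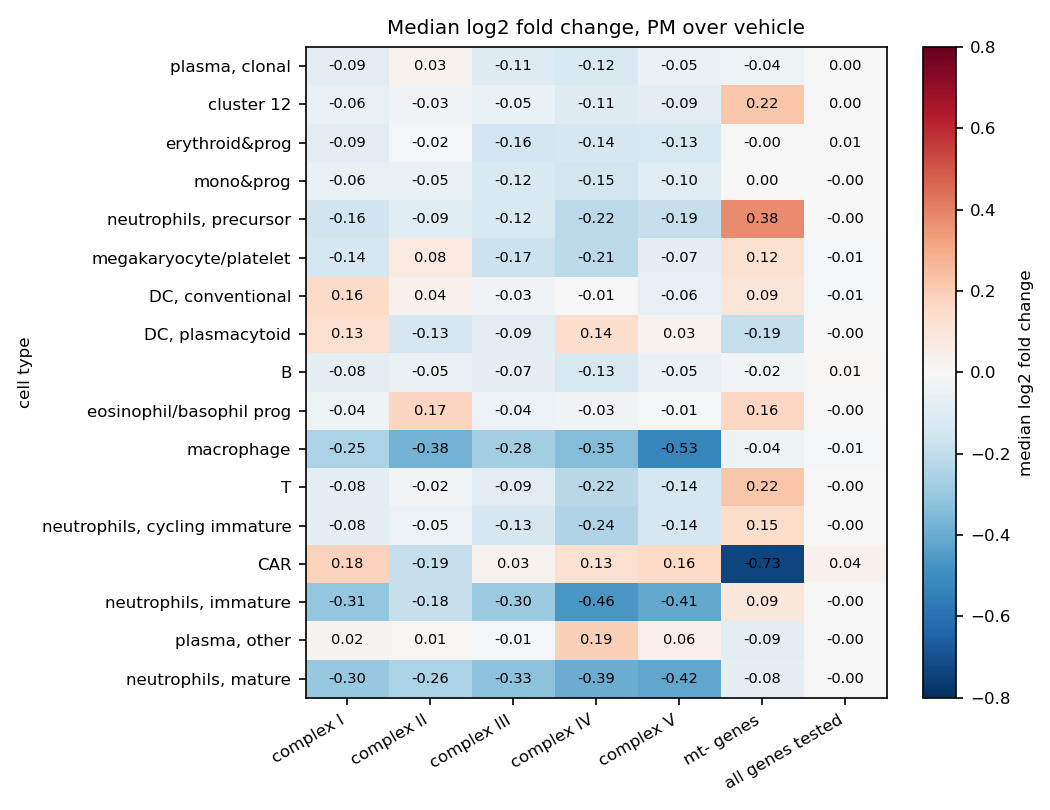
Median log2 fold change (PM against vehicle) over the tested members of each complex and over the mt- genes, by set of cells. In immature and mature neutrophils the complexes lie between −0.18 and −0.46, while the mt- genes are at 0.09 and −0.08.

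The c-ring is encoded by 3 genes whose mature proteins are known to be the same, and they differed in level. Over all cells, without TMM scaling, Atp5g1 stood at 125 and 171 CPM in the vehicle mice against 201 and 138 in the PM mice, against 289 and 320, and 300 and 325, for Atp5g3. In mature neutrophils Atp5g1 was nearly lost, at 5.03 and 8.38 against 12.4 and 5.92 CPM, with the groups overlapping. Atp5g2 overlapped as well, at 22.7 and 25.3 against 26.7 and 18.9. Atp5g3 remained the most abundant of the 3 in mature cells, at 57.5 and 52.6 against 46.2 and 44.9 (adjusted p = 0.215).

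The calls that ran against the general direction fell on Cox6b2 and Cox6a2, forms of different cytochrome c oxidase subunits. Cox6b2 is known as the testis form of subunit 6B. In mature neutrophils it had 1.48 and 1.51 CPM in the vehicle mice against 6.11 and 4.78 in the PM mice, with no overlap, and a log2 fold change of 1.86 ± 0.31 (adjusted p = 0.0133). The call was absent without vehicle mouse 1 (adjusted p = 0.0627), without PM mouse 1 (0.0977) and with the replicate block (0.0565). PM was higher than vehicle in all 4 pairs in 12 of the 13 sets of cells where it was tested, though it passed in mature neutrophils only. These sets come from the same 4 mice and some share cells. In pooled neutrophils 31% of all genes were higher in all 4 pairs. In immature neutrophils it had 4.78 and 8.85 against 13.5 and 10.3 (adjusted p = 0.0991), in pooled neutrophils 13.6 and 19.0 against 32.2 and 24.8 (adjusted p = 0.0505), and in mono&prog cells 18.8 and 32.4 against 48.1 and 39.2 (adjusted p = 0.329). Its highest level was in erythroid&prog cells, which held 36.3% of its UMIs, at 188 and 255 against 290 and 271 CPM (adjusted p = 0.447). Haemoglobin transcripts, a mark of erythroid RNA, were 0.00647% and 0.0169% of the UMIs of mature neutrophils in the vehicle mice against 0.0168% and 0.0246% in the PM mice, and their part in the change of Cox6b2 was not tested.

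Cox6a2, known as the heart and muscle form of subunit 6A, was the member most restricted to a cell type. Dendritic cells (DC) held 82.6% of its 3610 UMIs, and it was among the genes that led this cluster, so its level there is a description. Plasmacytoid DC held 1259 of these UMIs and the 524 DC that were not divided further held 1698, with 1 subcluster of 137 cells led by the B cell genes Ms4a1 and Cd79a also showing Cox6a2 among its leading genes. In plasmacytoid DC its level, without TMM scaling, was 865 and 979 CPM in the vehicle mice against 755 and 632 in the PM mice, and 86.4% to 97.0% of these cells had a UMI. In mature neutrophils 0.130%, 0.0816% and 0.0614% of cells had one in 3 libraries, and 0 of 2733 cells in PM mouse 2. The median UMIs per cell were 5175 to 6619 in plasmacytoid DC and 2614 to 4004 in mature neutrophils. The PM values in plasmacytoid DC were below the vehicle values, but did not pass (−0.44 ± 0.16, adjusted p = 0.226).

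In clonotypic plasma cells Cox6a2 rose, the one member called there, where 0.524% of all genes were called higher. Its raw UMIs were 4 and 0 in the vehicle mice against 103 and 25 in the PM mice, from 21 and 27 cells against 92 and 31. Cells with a UMI made up 2 of 21 and 0 of 27 against 32 of 92 and 7 of 31. A single cell held 21 of the 103 UMIs in PM mouse 1 and 11 of the 25 in PM mouse 2. The vehicle counts are near 0, so the fitted log2 fold change of 3.59 ± 0.69 (adjusted p = 0.0275) depends on few reads. The call was absent without vehicle mouse 1, without vehicle mouse 2, with DESeq2 and with the stricter cell filter. Siglech and Ccr9, defining genes of plasmacytoid DC, had 3 and 0 UMIs in all of these plasma cells.

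**Figure D5:**
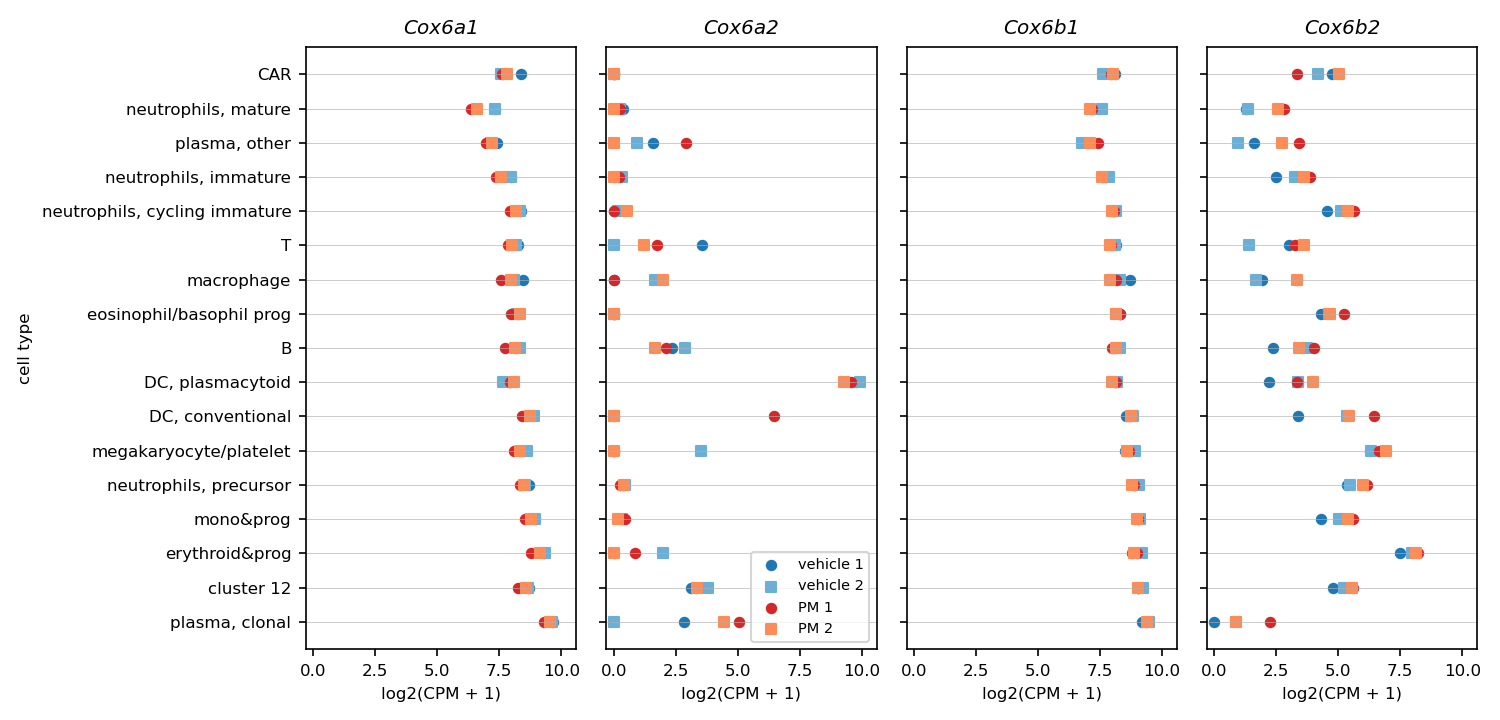
Levels (CPM without TMM scaling, log axis) of the subunit 6A and 6B paralogs in each set of cells, 1 point per mouse. Cox6a1 and Cox6b1 are found in all sets, Cox6a2 is highest in plasmacytoid DC (632 to 979 CPM) and Cox6b2 in erythroid&prog cells (180 to 297 CPM).

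The mt- genes did not follow the nuclear members. In pooled neutrophils they held 1.43% and 1.43% of the UMIs in the vehicle mice against 2.04% and 1.91% in the PM mice, with no overlap. Precursors held 3.52% and 3.53% against 4.93% and 4.63%. Immature cells differed less, at 0.997% and 0.950% against 1.14% and 1.12%. In mature cells the order turned, with 0.782% and 0.724% against 0.701% and 0.691%, but within cluster 1 the groups overlapped, at 0.758% and 0.690% against 0.727% and 0.727%. Their mt- UMIs divided by nuclear member UMIs gave 1.36 and 1.22 in the vehicle mice against 1.84 and 1.89 in the PM mice in pooled neutrophils, 1.61 and 1.52 against 2.34 and 2.35 in precursors, 1.15 and 1.02 against 1.47 and 1.57 in immature cells, and 1.31 and 1.13 against 1.48 and 1.60 in mature cells. The ratio was thus above the vehicle values in both PM mice at each of these stages. Cells were filtered on the mt- share (at most 20% of their UMIs), which bounds these values.

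By gene, all 13 mt- genes had a log2 fold change above 0 in pooled neutrophils (median 0.33), and both PM mice lay above both vehicle mice for 11, where 31% of all genes did so. None was called: mt-Nd2, a complex I subunit, had 355 and 376 CPM against 520 and 486 and an adjusted p of 0.0668. Within stages the medians were 0.09 in immature and −0.08 in mature cells. Precursors, the stage with the highest mt- share, were 3.31% and 3.84% of neutrophils in the vehicle mice against 6.22% and 5.62% in the PM mice. The part of this mix of stages in the pooled values was not tested. Over the 20 sets, edgeR called 0 of 253 mt- tests and DESeq2 0, with 15 and 25 at an unadjusted p under 0.05. Other edgeR fits did call some: 3 tests with library size alone, 3 without vehicle mouse 2, 1 without PM mouse 2 and 1 with the replicate block. The values that did not overlap in the shares therefore did not pass the test by gene with TMM scaling and all 4 mice.

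T cells had mt- shares of 4.73% and 4.57% in the vehicle mice against 5.203% and 5.56% in the PM mice, while their nuclear share was 1.31% and 1.35% against 1.21% and 1.17%. The mt- to nuclear ratio was 3.62 and 3.38 against 4.30 and 4.75, without overlap. Cluster 24, with NK cell genes, gave 50 of 260 and 54 of 261 cells of this set in the vehicle mice. In the PM mice it gave 108 of 828 and 70 of 541, and the part of this mix was not tested. CXCL12-abundant reticular (CAR) cells, which are stromal and few (35 to 84 per library), had the opposite: mt- shares of 4.18% and 4.59% against 3.07% and 2.22%, with 11 of 11 tested mt- genes lower (median −0.73). Neutrophil transcripts made up 19.0% and 14.2% of the UMIs of CAR cells in the vehicle mice against 22.5% and 22.3% in the PM mice, and their part in this was not tested. In plasmacytoid DC the mt- share was 6.68% and 6.49% against 6.20% and 6.07%.

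Outside the neutrophils, few members were called in any type. In mono&prog cells the median log2 fold change was −0.08 over 78 members and 0 were called by edgeR (1.32% of all genes were), with 4 at an unadjusted p under 0.05 and 0 called by DESeq2. The largest fall there was that of Cox6a1, from 498 and 494 CPM to 382 and 414 (adjusted p = 0.273). T cells had a median of −0.11, with Atp5k at 213 and 214 against 151 and 164 (adjusted p = 0.201). In B cells the median was −0.08, and Atp5g1 had the largest rise that held in all pairs, 79.0 and 92.4 against 126 and 96.0 (adjusted p = 0.278). Clonotypic plasma cells had shares that overlapped and a median of −0.08 over 77 members. In all plasma cells the median was 0.00. Macrophages had a median of −0.33 with 68 of 75 members below 0 (50.7% of all genes) and 0 called by edgeR or DESeq2 (0.0179% of all genes by edgeR), with 8 at an unadjusted p under 0.05, but vehicle mouse 1 (1.69%) stood above vehicle mouse 2 (1.20%), and neutrophil transcripts held 8.82% and 17.4% of their UMIs in these mice. Without vehicle mouse 2 there were 4 calls in macrophages.

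Whether the effect of PM in neutrophils differed from that in other types was tested as an interaction, each mouse entering as a block. Pooled neutrophils entered these fits, so immature and mature cells, where most calls were made, were not compared with other types. Against mono&prog cells 1 of 78 members passed, Ndufb1-ps, which fell less there, with a difference of 0.30 ± 0.08 (adjusted p = 0.0441). For comparison, 6.94% of all genes passed at the same adjusted p. Of the 78 members, 14 had an unadjusted p under 0.05. Against T cells (2.28% of all genes passed) and B cells (6.12%) no member passed, with 1 and 4 of 79 at an unadjusted p under 0.05. Against cluster 12, Ndufv3 passed with a difference of 0.42 ± 0.11 (adjusted p = 0.0368), where 5.1% of all genes did so. There 13 of 79 members had an unadjusted p under 0.05. The share of all genes under that unadjusted p is not given for these fits, so these member counts do not show an excess. For the other members a difference in response between pooled neutrophils and these types was not shown.

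Related gene groups were counted in the same fits of immature and mature neutrophils. Carriers and subunits outside the symbol rule, Cox4i1 and Cyc1 on their list, had a median of −0.31 over 7 tested in immature cells, where 3 fell. Cycs (cytochrome c) fell from 56.4 and 64.0 to 40.7 and 39.4 CPM. Cyc1 (cytochrome c1 of complex III) fell from 30.02 and 32.9 to 24.5 and 19.6. Etfa, an electron carrier from fatty acid oxidation, fell from 28.6 and 28.0 to 18.8 and 18.2. In mature cells none of 7 was called and the median was 0.03. Assembly factors of the complexes had medians of −0.06 and −0.09 in immature and mature cells, with 1 lower and 1 higher of 43 and of 36. Genes of mitochondrial biogenesis, Nrf1, Gabpa and Yy1 among them, had medians of −0.12 and −0.04, with Twnk, the mitochondrial DNA helicase, called lower in both. Nrf1 had 38.3 and 40.0 CPM against 34.9 and 42.0 in immature cells and did not pass.

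Glycolytic genes had medians of −0.28 and −0.31, with 1 of 16 called lower in immature and 0 of 16 in mature cells. Citric acid cycle genes had medians of −0.17 and −0.32, with 0 and 3 of 17 called lower. The mitochondrial ribosome had medians of −0.14 over 77 genes and −0.12 over 68, with 4 called lower and 1 higher in each stage. Cycling genes had a median of −0.52 with 3 of 12 lower in immature cells, and of 0.77 with 12 of 12 above 0 but none called in mature cells. Cycling genes and haemoglobins (medians 0.83 and 0.90) moved with the groups beside the members, and their part in the members' changes was not tested.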

How the data were processed

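Bone marrow cells of 2 vehicle and 2 PM mice were profiled with 10x 3′ v3 chemistry. The authors deposited filtered UMI counts per gene and cell, made with Cell Ranger 6.0.1 per the file headers. The methods of the study name GRCm38 and the submitters' processing notes GRCm39, so gene coordinates are not given, and promoters are those of RefSeq GRCm38.p6. The count tables hold reads that map to 1 gene, so genes with near-identical copies may be understated, as may the 11 members that overlap another gene on the same strand.

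Cells with at least 300 genes and at most 20% mt- UMIs were kept and clustered (scanpy 1.11.5, 2500 variable genes, 30 components, Leiden resolution 1). Clusters were named from marker lists. Doublets were scored per library, with a threshold set by Otsu's method after the automatic one marked under 0.5% in 2 libraries, and were left out only as an alternative. Counts were summed per library and set of cells with at least 10 cells in every library. The sums were tested for PM against vehicle with edgeR 4.0.16 (TMM, filterByExpr, quasi-likelihood, R 4.3.3), with Benjamini-Hochberg adjustment over all genes tested. The script was checked on simulated data. P-values rest on the spread between 2 mice per group, which edgeR moderates with the spread of all genes tested in the same fit. The SE given is the absolute log2 fold change divided by the square root of the test's F statistic. Medians and counts describe lists, without a test over a list.

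The members, gene lists and tests were chosen with earlier results of these data known. Genes named are the called members with the largest changes (up to 12), the highest and lowest members of each complex, paralog sets, the 6 members most restricted to a type, and the largest rise and fall per type. Other called members, biogenesis genes and the defining genes of plasmacytoid DC were named after their values were seen. Alternatives were other size factors, no low-count filter, DESeq2 1.42.0, each mouse left out, a replicate block, doublets left out and a stricter cell filter (500 genes, 10% mt-). With 2 pairs, replicate numbers were not taken to pair the mice. Library preparation batches are not given in the sources used here. Authors' cell annotation was not used here.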

Additional observations from a re-analysis of the deposited data

Results flagged for a closer look

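Some genes stood out because the effect of PM differed between pooled neutrophils and another type by the edgeR interaction test (mouse as block; adjusted p over all genes tested). Each value is the log2 fold change in the other type minus that in neutrophils. Ndufb1-ps differed by 0.2968 in mono&prog cells (adjusted p = 0.0441), where its own values were 641 and 748 CPM against 545 and 598. Ndufv3 differed by 0.4187 in cluster 12 (adjusted p = 0.0368), where it had 114 and 133 CPM against 132 and 108.

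The mt- genes that differed in mono&prog cells were mt-Nd3, by −0.5318 (adjusted p = 0.0115), mt-Nd2, by −0.4681 (adjusted p = 0.0447), and mt-Atp6, by −0.2909 (adjusted p = 0.0488). In B cells mt-Nd4l differed by −0.5726 (adjusted p = 0.0217). Of the 13 mt- genes, 12 had an unadjusted p under 0.05 in mono&prog cells, with a median difference of −0.32. The share of all genes under that unadjusted p is not given here. The mix of stages in pooled neutrophils differed between the groups, and its part in these differences was not tested.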

How the results depend on the processing

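The counts of calls depended on the mice and on the fit, the medians less so. The counts in this section take rises and falls together. In each fit below that called 2 members in pooled neutrophils, 1 of the 2 was lower. All called members kept their sign in every alternative. With DESeq2's size factors inside edgeR, 2 members were called in pooled neutrophils and 4 in the interaction with mono&prog cells. With library size alone, which moved the median of all genes by 0.16 in pooled neutrophils, 0.11 in immature ones, 0.23 in plasma cells and 0.20 in the plasma cells that were not clonotypic, the members' median was −0.0197 in pooled neutrophils (44 of 78 below 0) and 0.2307 in plasma cells, the mt- median in pooled neutrophils was 0.4855, 4 members were called in immature neutrophils, and the interactions gave 2 (mono&prog), 2 (B) and 0 (cluster 12). Without a filter on low counts 54 calls were made over the 20 sets: 2 in pooled, 16 in immature and 28 in mature neutrophils and 1 in mono&prog cells among them. The interactions then gave 5 and 4 members for mono&prog cells and cluster 12, and the mt- median in mature neutrophils was −0.1309. DESeq2 called 2 members in pooled neutrophils, 0 in B cells and 0 in clonotypic plasma cells. Leaving out doublets gave 2 calls in pooled neutrophils, and 4 and 3 in the interactions with mono&prog cells and cluster 12. The stricter cell filter gave 0 calls in B cells and in clonotypic plasma cells and a mt- median of −0.4144 in CAR cells. In cluster 0 alone the mt- median of immature neutrophils was 0.2045, and in cluster 1 alone that of mature neutrophils was 0.1014.

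With the replicate number as a block, 12 calls were made in place of 30: 0 in pooled, 6 in immature and 2 in mature neutrophils, and 2 in B cells. The deviations of same-numbered mice correlated at −0.15 in pooled neutrophils and between −0.15 and 0.21 over the 20 sets, with 3 above 0.1 (CAR cells, macrophages and the plasma cells that were not clonotypic) and 3 below −0.1. With 2 pairs and no label of a shared litter or day, the numbers were not taken as a pairing. The crossed pairing, chosen after the data were seen, gave 2 calls in pooled and 23 in mature neutrophils.

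Leaving out 1 mouse at a time gave 8 to 41 calls over the 20 sets, the fewest without vehicle mouse 1. The range of calls was 0 to 1 in pooled neutrophils, mono&prog cells, B cells and clonotypic plasma cells, 1 to 34 in immature and 3 to 10 in mature neutrophils, and 0 to 4 in macrophages. In the interactions it was 0 to 5 for mono&prog cells, 0 to 1 for B cells and 0 to 0 for cluster 12. The members' median ranged from −0.3114 to −0.0180 in pooled, −0.4877 to −0.2122 in immature and −0.4802 to −0.2444 in mature neutrophils, −0.1482 to 0.0357 in B cells, −0.1962 to −0.0422 in T cells, −0.1216 to 0.1615 in plasma cells and −0.2001 to 0.0845 in clonotypic ones. The mt- median ranged from 0.0141 to 0.2084 in immature and −0.1378 to −0.1139 in mature neutrophils, and from −1.0621 to −0.4600 in CAR cells. Sets with a lower nuclear share in every pair numbered 7 to 15, and those with a higher mt- share 11 to 13 in place of 8. Fewer pairs had to agree in these counts of sets, so they could not fall. Why these values moved was not tested, apart from the smaller number of mice.

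With 2 mice per group, changes under the size of their spread could not be called, and absence of a call does not show that a member was unchanged.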
